A study of Mus musculus with 4 samples.

Results

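Axon guidance genes encode the cues that steer growing axons and the receptors that read them. All genes of the deposited feature list whose symbol belongs to the semaphorin 3 to 7, plexin, neuropilin, Eph receptor, ephrin, Slit, Robo, netrin, netrin-G or Unc5 families were taken, with Dcc and Neo1. They numbered 71 of 31053 genes and fell into 13 families. Their transcripts were followed in excitatory neurons of the adult mouse ventromedial prefrontal cortex (vmPFC; the prelimbic and infralimbic areas), by neuronal subtype and by whether the neuron carried a retrograde viral barcode.

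The study injected 5 viruses of the rAAV2-retro type, each with EGFP and its own barcode, into 5 targets of the vmPFC in the same animal: agranular insula, dorsomedial striatum, mediodorsal thalamus, basolateral amygdala and lateral hypothalamus. The virus enters axon endings and travels back, so a barcode transcript in a vmPFC cell body marks a projection. Every animal was a male C57BL/6 mouse, labelled as 8 weeks old, that had received all 5 viruses, and none went uninjected. The labelled age is that at virus injection. Cells were collected several weeks later, so the transcripts come from older mice than the label says. Unsorted cells gave 3 single-cell libraries, titled mouse 1, 2 and 3. Cells sorted for EGFP gave 1 more, pooled from 3 mice. A neuron without a barcode UMI can still project to one of these targets, since the virus may not have reached it or its barcode transcripts may not have been captured, and a few UMIs can also be background. The matrices hold a single feature named barcode, so the 5 targets were not separated here.

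Semaphorins bind plexins, and the secreted class 3 semaphorins mostly need a neuropilin as co-receptor. Ephrins are tethered to the membrane, bind Eph receptors on a neighbouring cell and can signal into both cells. Slits act through Robo receptors, and netrins act through Dcc, neogenin (Neo1) and the Unc5 receptors. Netrin-G proteins are anchored to the membrane, bind NGL proteins and do not bind Dcc. Many of these proteins are known for crossing, layer and target choices of axons in the embryo, and in the adult cortex for synapse and spine maintenance.

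Levels are given as CPM, the share of a gene among all gene UMIs (unique molecular identifiers, one per captured transcript) of the neurons of one library and subtype, summed and scaled to 1000000. The assay reads transcripts at their 3′ end, so a count does not scale with gene length. Each value printed for 4 libraries follows the order unsorted 1, 2 and 3, then sorted. The libraries held 83039497 to 87809114 UMIs each when unsorted and 54728191 when sorted, with 2463 to 2816 and 1603 excitatory neurons. Median depth per excitatory neuron was 21343.5 to 23213 UMIs when unsorted and 31669 when sorted. Pairs of libraries shared 5 to 30 cell barcodes, at most 0.403% of the smaller library. Each unsorted library is titled as its own mouse. The p-values below come from fits with the library as block. They measure how far the difference between barcode classes varied over the libraries tested, a spread that may be partly technical. In a sum over cells, fewer neurons with a transcript and less transcript per neuron cannot be told apart.

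The sorted library often lay outside the range of the unsorted ones. Over the 6 subtypes with enough sorted cells it fell beyond the lowest or highest of the unsorted 3 in 76.5% of gene and subtype pairs, and in 77.8% of 351 such pairs for the guidance genes. Of the guidance pairs 230 lay above and 43 below that range, against 36509 above and 23102 below for all genes. With TMM factors the shares outside were 72.9% for guidance genes and 74.9% for all genes. Part of such a share arises without any difference, since some library is always lowest and some library highest. The same share for an unsorted library was not computed. There is 1 sorted library, so sorting, animals, depth and library cannot be told apart, and results are given below with and without it where it matters.

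The authors' 7 subtype labels were checked against marker genes. Calb1, Rorb, Bcl6, Htr2c, S100b, Npy and Syt6 were each highest in the subtype named after them, with every library above all libraries of the other subtypes. Etv1, a layer 5 marker, was highest in L5-Htr2c, and Sulf1, a layer 6 marker, in L6-Npy. Cux2, a marker of upper layers, was highest in L2/3-Calb1 at 183 CPM, with L2/3-Rorb next at 159 CPM, and their libraries overlapped. Because the labels came from clustering these same cells, differences between subtypes are described here without a test.

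Axon guidance genes were spread unevenly over the subtypes. A gene was called separated when the lowest library of its highest subtype lay above the highest library of every other subtype. This held for 25 of the 67 guidance genes with at least 20 UMIs, or 37.3%, against 16.6% of all 16767 genes with as many UMIs. The highest subtype was L5-Bcl6 for 7 of the 25, L5-Htr2c for 6, L2/3-Rorb for 5, L6-Npy for 3, and L2/3-Calb1 and L6-Syt6 for 2 each. None was separated in L5-S100b, which took only 2.80% of all separated genes. Among all separated genes L5-Htr2c took 37.5% and L5-Bcl6 9.19%, against 24.0% and 28.0% of the separated guidance genes. Only neurons without a barcode gave 15 separated guidance genes, and leaving out the sorted library gave 36. Of all 16767 genes 1685 and 4867 were separated in these settings, so the counts of all genes moved the same way. Epha2, Ephb4, Robo4 and Sema3g had 6 to 18 UMIs over all subtypes and were left out of these counts, although none of the 71 genes was at 0 in every subtype.

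**Figure D1:**
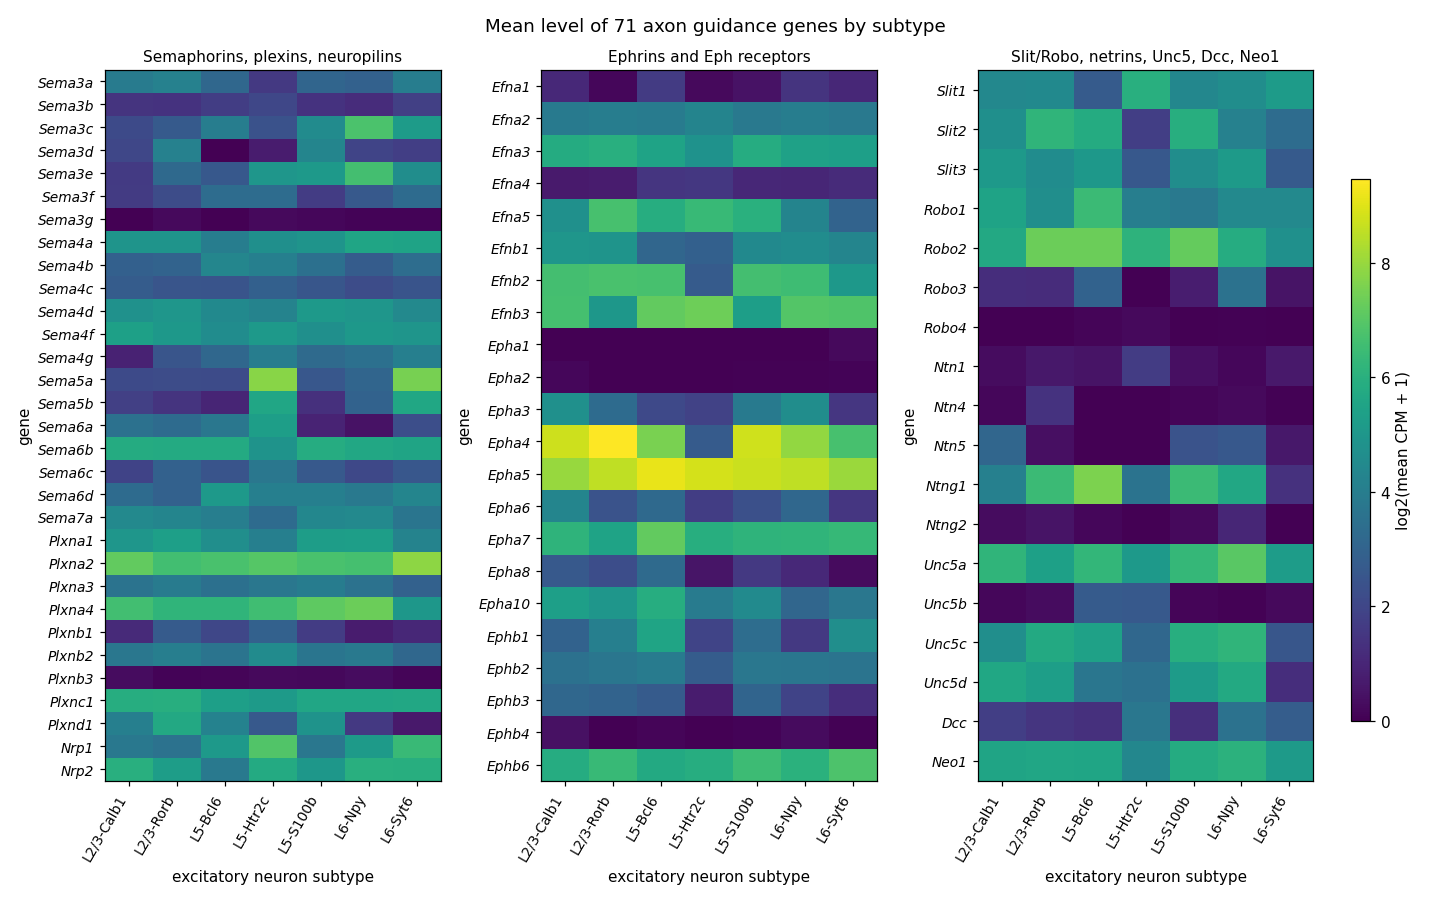
Mean level of the 71 genes in each of 7 subtypes, as log2(mean CPM + 1) over 4 libraries (3 for L5-Htr2c), with ligands and receptors grouped by family. Epha5 and Plxna2 are bright in every column, whereas Sema5a is bright in L5-Htr2c and L6-Syt6 and Epha4 is dark in L5-Htr2c.

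Among semaphorins, 5 of the 19 with enough UMIs were separated. Sema3c, a secreted ligand that binds neuropilins, stood at 105, 104, 99.98 and 122 CPM in L6-Npy. The next subtype, L6-Syt6, had 35.2 ± 5.64 CPM (SD, n = 4), a ratio of 3.06. Sema3e, the secreted ligand of plexin D1, stood at 101, 103, 89.2 and 101 CPM in L6-Npy against 32.8 ± 1.66 CPM (SD, n = 4) in L5-S100b. Both genes were thus about equally far above the next subtype, and the 4 libraries of L6-Npy lay close together. Both were lowest in L2/3-Calb1, at 3.41 ± 2.25 CPM (SD, n = 4) and 2.04 ± 1.91 CPM (SD, n = 4).

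Sema6a, a transmembrane ligand of A-type plexins, had 41.9, 35.6 and 37.2 CPM in the 3 unsorted libraries of L5-Htr2c. It had 12.5 ± 2.51 CPM (SD, n = 4) in the next subtype, L5-Bcl6, the largest ratio among separated guidance genes with at least 5 CPM in the highest subtype (3.07). L5-Htr2c had only 4 neurons in the sorted library, which gave no sum. Sema6c was highest in the same subtype, at 14.6, 14.6 and 8.48 CPM, and the value of unsorted library 3 was close to the highest of L2/3-Rorb, 7.97 CPM. With TMM factors, at 15000 to 40000 UMIs per neuron and in barcode-free neurons alone, Sema6c was no longer separated. Sema6d was highest in L5-Bcl6, at 33.6, 27.2, 35.6 and 34.4 CPM against 18.8 ± 0.934 CPM (SD, n = 4) in L6-Syt6. Sema5a, the semaphorin with the highest level over all excitatory neurons (107 ± 9.16 CPM, SD, n = 4), divided the subtypes sharply. It stood at 220.4 ± 14.4 CPM (SD, n = 3) in L5-Htr2c and 180.1 ± 30.2 CPM (SD, n = 4) in L6-Syt6, whose libraries overlapped, and at 3.38 to 7.47 CPM on average in the other 5.

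Of the semaphorin receptors, 3 of 9 plexins and 1 of the 2 neuropilins were separated. Plxnd1, the plexin that binds Sema3e, had 49.1, 43.1, 49.6 and 64.5 CPM in L2/3-Rorb against 28.2 ± 3.68 CPM (SD, n = 4) in L5-S100b. Its level was 1.94 ± 0.759 CPM (SD, n = 4) in L6-Npy, the subtype with the highest Sema3e, and 0.569 ± 0.118 CPM (SD, n = 4) in L6-Syt6. Plxna2, a receptor for class 6 semaphorins, was highest in L6-Syt6 at 217, 216, 212 and 267 CPM and had at least 94.7 CPM on average in every other subtype. Plxnb2, a receptor for class 4 semaphorins, was highest in L5-Htr2c at 25.6, 22.3 and 20.2 CPM. Nrp1, the co-receptor through which Sema3a acts, had 109, 121 and 120.0 CPM in L5-Htr2c, 83.4 ± 2.84 CPM (SD, n = 4) in L6-Syt6 and 10.9 ± 1.082 CPM (SD, n = 4) in L2/3-Rorb. The order of Nrp1 was L5-Htr2c, L6-Syt6, then L6-Npy and L5-Bcl6, whose libraries overlapped, and the other 3 subtypes at the bottom. Nrp2 was not separated, since L6-Npy (62.1 ± 10.8 CPM, SD, n = 4) and L2/3-Calb1 (61.8 ± 8.21 CPM, SD, n = 4) overlapped. It was lowest in L5-Bcl6, at 13.3 ± 3.31 CPM (SD, n = 4).

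Eph receptors were separated more often than their ligands, in 5 of 8 Epha and 2 of 4 Ephb genes against 1 of 8 ephrin genes. This difference was not tested. Epha4, which binds ephrins of both classes, stood at 631, 639.8, 642 and 886 CPM in L2/3-Rorb and 436 ± 48.5 CPM (SD, n = 4) in L5-S100b. In L5-Htr2c it was at 6.99, 6.98 and 2.61 CPM, the lowest of all 7 subtypes. Epha5, the guidance gene with the highest level over excitatory neurons (325 ± 33.4 CPM, SD, n = 4), ranged from 253 ± 19.7 CPM (SD, n = 4) in L2/3-Calb1 to 560.4 ± 101 CPM (SD, n = 4) in L5-Bcl6. L5-Bcl6 also had the highest Epha7, at 125, 140.4, 152 and 153 CPM against 80.4 ± 2.76 CPM (SD, n = 4) in L6-Syt6. Ephb1 there stood at 38.1, 49.4, 43.3 and 50.6 CPM, with L6-Syt6 next at 24.5 ± 3.29 CPM (SD, n = 4). Epha8 was highest there too, with 9.94, 7.66, 8.11 and 8.84 CPM. Epha6 was highest in L2/3-Calb1, at 21.1, 14.8, 15.5 and 22.7 CPM against 8.50 ± 3.63 CPM (SD, n = 4) in L5-Bcl6. Ephb6, an Eph receptor without kinase activity, was highest in L6-Syt6 at 112 ± 1.68 CPM (SD, n = 4).

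Among ephrins, Efna5 was the separated one, with 97.0, 99.4, 89.5 and 126 CPM in L2/3-Rorb, 80.7 ± 8.02 CPM (SD, n = 3) in L5-Htr2c and 7.08 ± 1.60 CPM (SD, n = 4) in L6-Syt6. Efna3, the A-type ephrin with the highest level over excitatory neurons, varied less, from 27.2 ± 5.77 CPM (SD, n = 3) in L5-Htr2c to 61.7 ± 4.23 CPM (SD, n = 4) in L2/3-Rorb. Efnb3, which keeps corticospinal axons from recrossing the midline, was highest in L5-Htr2c (166 ± 9.24 CPM, SD, n = 3) and L5-Bcl6 (144 ± 29.6 CPM, SD, n = 4), whose libraries overlapped. It was lowest in L2/3-Rorb (31.2 ± 7.33 CPM, SD, n = 4) and L5-S100b (37.9 ± 6.97 CPM, SD, n = 4), which overlapped as well.

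Slit1 and Robo1 peaked in different subtypes, whereas Slit2 and Robo2 were both highest in L2/3-Rorb, and Slit3 and Robo3 both in L6-Npy. Slit1 had 59.97, 69.1 and 54.8 CPM in L5-Htr2c, 35.1 ± 0.483 CPM (SD, n = 4) in L6-Syt6 and 5.51 ± 0.951 CPM (SD, n = 4) in L5-Bcl6. Robo1 was highest where Slit1 was lowest, in L5-Bcl6, at 85.4, 77.9, 78.0 and 103 CPM against 43.3 ± 7.14 CPM (SD, n = 4) in L2/3-Calb1. Slit2, separated like Slit1, stood at 71.8, 70.3, 67.9 and 76.5 CPM in L2/3-Rorb, with L5-S100b next at 60.5 ± 6.28 CPM (SD, n = 4). Slit3 had 34.9 ± 3.01 CPM (SD, n = 4) and Robo3 10.96 ± 2.46 CPM (SD, n = 4) in L6-Npy, and neither was separated. Robo2, the Robo gene with the highest level over excitatory neurons, was close in L2/3-Rorb, L5-Bcl6 and L5-S100b at 161, 158 and 147 CPM on average, and lowest in L6-Syt6 at 25.7 ± 1.95 CPM (SD, n = 4).

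Ntng1, which encodes netrin-G1, differed widely between subtypes. It stood at 150.5, 165, 151 and 296 CPM in L5-Bcl6, where the sorted library was far above the unsorted ones, and at 1.53 ± 0.329 CPM (SD, n = 4) in L6-Syt6. L5-S100b and L2/3-Rorb were between, at 86.5 ± 24.5 CPM (SD, n = 4) and 86.1 ± 19.0 CPM (SD, n = 4). Ntn5 was the highest of the 3 secreted netrins but low throughout, with 8.74, 9.83, 6.29 and 6.35 CPM in L2/3-Calb1 and no UMI in L5-Bcl6 or L5-Htr2c. Ntn1 and Ntn4 were separated as well, with 2.16 and 1.64 CPM on average in their highest subtypes. Unc5a, a repulsive netrin receptor, was highest in L6-Npy at 128, 113, 112 and 173 CPM, ahead of 77.0 ± 15.0 CPM (SD, n = 4) in L5-S100b. Neo1 ranged from 19.9 ± 2.36 CPM (SD, n = 3) in L5-Htr2c to 66.5 ± 8.19 CPM (SD, n = 4) in L6-Npy. Dcc was lower, at 12.6 ± 0.629 CPM (SD, n = 3) in L5-Htr2c and 1.42 ± 0.128 CPM (SD, n = 4) in L5-S100b.

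**Figure D2:**
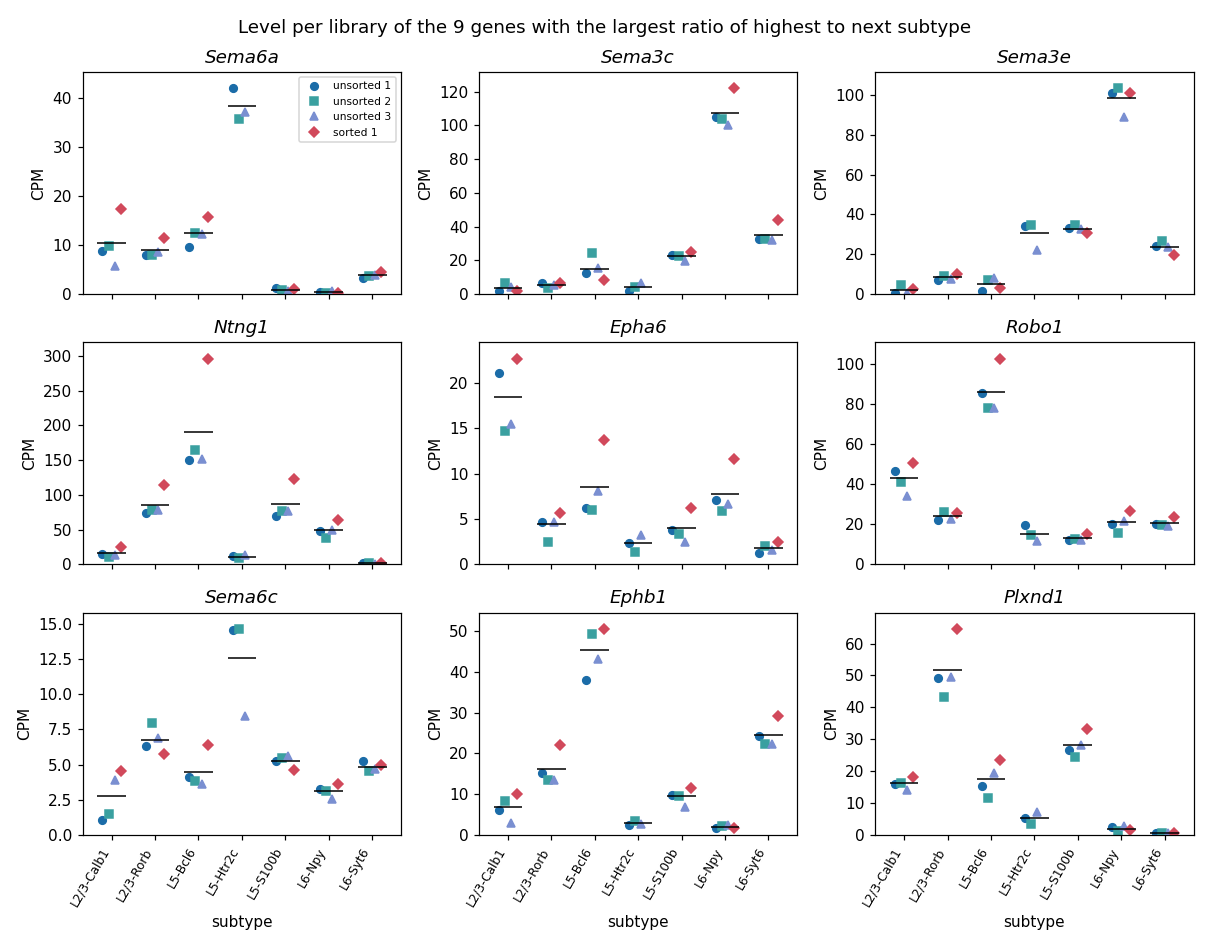
Level in CPM (y axis, from 0) of the 9 separated genes with the largest ratio of highest to next subtype among those with at least 5 CPM in the highest, by subtype (x axis), with 1 point per library and the mean as a bar. In each panel all points of 1 subtype lie above every other point. Sema6a and Sema6c peak in L5-Htr2c, Sema3c and Sema3e in L6-Npy, Ntng1, Robo1 and Ephb1 in L5-Bcl6, Epha6 in L2/3-Calb1 and Plxnd1 in L2/3-Rorb.

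The level in excitatory neurons was then compared with that in the other cells of the same unsorted libraries, a mix of glia, vascular cells and other neurons. Of the 67 guidance genes 36 were higher in excitatory neurons in 3 of 3 libraries and 29 were higher in the other cells, or 53.7% and 43.3%. Of all genes 43.2% were higher in excitatory neurons and 45.7% in other cells. Plxnb3, a B-type plexin, stood at 24.2, 27.5 and 26.2 CPM in other cells and 0.0657, 0.284 and 0.0688 CPM in excitatory neurons. Unc5b had 54.7, 54.7 and 49.5 against 0.542, 0.603 and 0.344 CPM, and Ntn1 24.9, 23.8 and 21.6 against 0.477, 0.461 and 0.671 CPM. At the other end, Robo3 stood at 1.79, 1.79 and 1.60 CPM in excitatory neurons and 0.1996, 0.124 and 0.341 CPM in other cells, and Slit1 at 29.9, 29.3 and 29.2 against 7.91, 7.41 and 7.93 CPM. Sema6a had 86.1, 91.2 and 86.8 CPM in other cells and 4.55, 4.59 and 4.71 CPM over all excitatory neurons, where L5-Htr2c alone had 38.2 ± 3.30 CPM (SD, n = 3). The median other cell had fewer UMIs than the median excitatory neuron (4220.5 to 4493 against 21343.5 to 23213, over the unsorted 3).

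**Figure D3:**
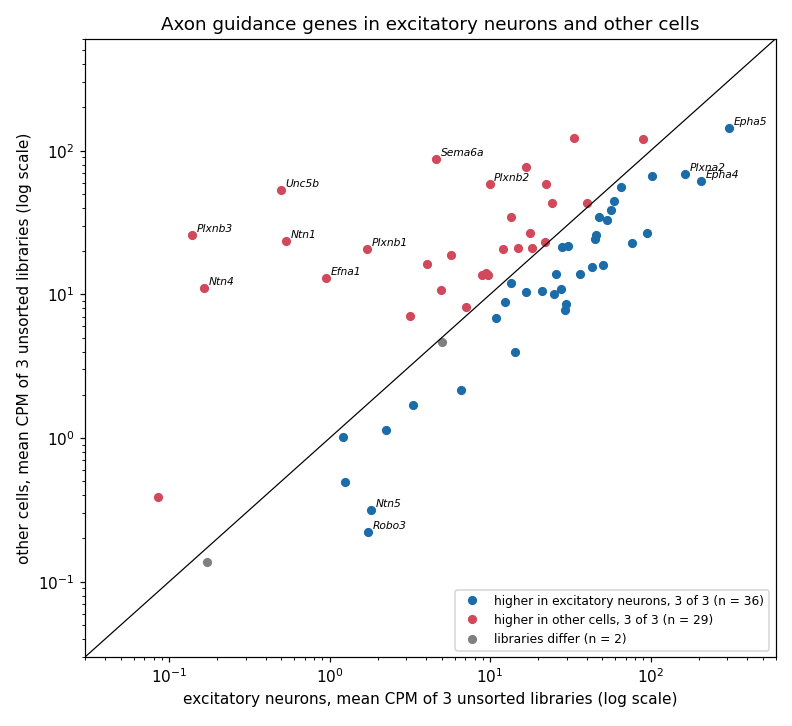
Mean CPM over the 3 unsorted libraries in excitatory neurons (x axis) and in other cells (y axis), both on log scales, 1 point per guidance gene (67 genes). The line marks equal levels. Plxnb3, Unc5b, Ntn4 and Ntn1 lie far above it, and Robo3 and Ntn5 lie below it.

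Within a subtype, neurons with 5 or more barcode UMIs (barcode-high) were compared with neurons of the same library with none (barcode-zero). Neurons with fewer barcode UMIs than 5, but not none, were in neither class. All cells of the sorted library had been sorted for EGFP, so its barcode-zero neurons may be labelled neurons whose barcode transcripts were not captured. Barcode-high neurons made up 37.8% to 39.9% of the excitatory neurons of an unsorted library, and barcode-zero neurons 39.3% to 43.3%. The other filtered cells of these libraries, at a median of 4220.5 to 4493 UMIs, had 5 or more in 1.36% to 1.69% and none in 93.5% to 94.6%. In the sorted library 56.1% of excitatory neurons and 8.51% of other cells had 5 or more. The limit of 5 was not set from cells without virus. The test was edgeR's quasi-likelihood test on summed counts with the library as block. A call needed a p under 0.05 after Benjamini-Hochberg adjustment over all genes tested, and a log2 fold change of 0.5 or more in size. Guidance genes that passed the filter on low counts numbered 35 to 57 of 71 per subtype, and 11 genes passed it in no subtype: Epha1, Epha2, Epha8, Ephb4, Ntn1, Ntn4, Ntng2, Plxnb3, Robo4, Sema3g and Unc5b. In L5-Bcl6, 6 guidance genes had no UMI in either class, the largest number of any subtype. L5-Htr2c had too few barcode-high neurons (2 to 4 per library) for a contrast. L2/3-Calb1 and L5-Bcl6 had fewer than 10 barcode-zero neurons in the sorted library and were tested in 3 libraries.

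The calls gathered in L5-S100b. There 3 of 52 tested guidance genes were higher and 8 lower in barcode-high neurons, or 5.77% and 15.4%, against 1.1% and 1.6% of all genes tested. In L6-Npy 2 of 48 were higher and none lower, against 0.617% and 0.183% of all genes. No guidance gene was called in L6-Syt6 (57 tested; all genes 0.806% higher and 0.867% lower), in L2/3-Rorb (45 tested; 0.0996% and 0.0398%), in L2/3-Calb1 (35 tested; 0.156% and 0.024%) or in L5-Bcl6 (37 tested; 0.0457% and 0.0229%). In these 4 subtypes 21, 8, 4 and 5 guidance genes had an unadjusted p under 0.05 by edgeR. Of all genes it was 3307 of 13030, 681 of 10038, 473 of 8340 and 579 of 8752. DESeq2 called no guidance gene in these 4 subtypes, with 14, 1, 1 and 2 at an unadjusted p under 0.05, beside 1896, 132, 42 and 46 of all genes. The median log2 fold change of the guidance genes lay between -0.11 and 0.05 in the 6 subtypes, where that of all genes tested was within 0.01 of 0.

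In L5-S100b neurons with a barcode, Efnb3 and Nrp2 were lower by more than a factor of 2. The comparison rested on 270, 242, 239 and 207 barcode-high and 74, 43, 54 and 24 barcode-zero neurons. Efnb3 (chr11:69554092-69560205, minus strand, GRCm38), the ligand of EphB receptors and Epha4, stood at 28.8, 28.3, 29.9 and 35.7 CPM in barcode-high neurons and at 65.0, 78.8, 45.4 and 90.3 CPM in barcode-zero neurons. The classes did not overlap (log2 fold change -1.14, SE 0.126, adjusted p = 1.8e-07). Nrp2 (chr1:62703285-62818695, plus strand), the co-receptor that Sema3f and Sema3c use, stood at 20.2, 21.7, 19.8 and 32.3 against 42.8, 61.6, 59.0 and 57.0 CPM, again without overlap (log2 fold change -1.22, SE 0.138, adjusted p = 2.7e-07). These 2 genes were called under all 11 alternatives tried, including DESeq2, the fit without the library block and the leaving out of each library.

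Ntng1, Sema3c, Unc5d and Sema3e were lower in the same neurons. Ntng1 (chr3:109780040-110144011, minus strand) stood at 54.1, 66.5, 67.1 and 101 against 104, 125, 121 and 158 CPM (log2 fold change -0.80, SE 0.0866, adjusted p = 1.35e-07). Sema3c (chr5:17574281-17730268, plus strand) stood at 20.8, 18.2, 16.9 and 15.6 against 32.9, 35.6, 21.3 and 54.2 CPM (log2 fold change -0.92, SE 0.179, adjusted p = 0.000928). Unc5d (chr8:28646717-29219636, minus strand), a receptor for netrins and FLRT2, stood at 31.4, 27.5, 25.4 and 36.4 against 38.7, 46.4, 57.1 and 57.0 CPM (log2 fold change -0.69, SE 0.137, adjusted p = 0.00111). In each of these 3 genes every barcode-high value lay below every barcode-zero value, and the call was lost only in the fit without the library block (adjusted p 0.0856, 0.0882 and 0.0925). Sema3e (chr5:14025276-14256689, plus strand) stood at 31.0, 33.0, 30.6 and 22.6 against 44.4, 51.8, 38.7 and 65.3 CPM (log2 fold change -0.70, SE 0.148, adjusted p = 0.00219), and without the sorted library its log2 fold change was -0.48, under the limit. The fit without the block did not call it.

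Plxnb2 and Epha6 were lower at smaller counts. Plxnb2 (chr15:89155549-89180788, minus strand) stood at 9.33, 9.87, 11.05 and 12.7 against 17.3, 16.2, 17.4 and 18.1 CPM, from 302 and 67 UMIs (log2 fold change -0.67, SE 0.206, adjusted p = 0.0463). Epha6 (chr16:59653483-60605531, minus strand) stood at 2.54, 2.54, 2.27 and 5.10 against 7.40, 7.56, 1.93 and 12.5 CPM, from 88 and 27 UMIs, and was lower in 3 of 4 libraries (log2 fold change -1.19, SE 0.359, adjusted p = 0.0426). Neither call was kept by DESeq2, without the block or with the limit at 1 barcode UMI, and leaving out any 1 of the 4 libraries ended the call of Plxnb2 and any but unsorted library 3 that of Epha6.

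Sema7a, Nrp1 and Ntn5 were higher in barcode-high L5-S100b neurons. Sema7a (chr9:57940112-57962865, plus strand), a membrane-anchored semaphorin that binds integrins and plexin C1, stood at 21.5, 19.6, 17.7 and 25.5 against 9.05, 11.9, 15.5 and 9.72 CPM (log2 fold change 0.87, SE 0.216, adjusted p = 0.01), with no overlap. Nrp1 (chr8:128358604-128503363, plus strand) stood at 19.1, 9.57, 15.0 and 11.6 against 6.58, 5.40, 12.6 and 2.78 CPM (log2 fold change 1.02, SE 0.273, adjusted p = 0.0183), higher in 4 of 4 libraries although the classes overlapped. The neuropilins thus changed in opposite directions in this subtype. Ntn5 (chr7:45684022-45694556, plus strand) stood at 3.68, 6.43, 4.67 and 5.65 against 3.29, 0, 0 and 1.39 CPM (log2 fold change 1.96, SE 0.585, adjusted p = 0.0397), with only 5 UMIs in all barcode-zero neurons. Ntn5 passed the filter on low counts through its barcode-high values, so its fold and its place among the 3 higher genes are uncertain. DESeq2 and the fit without the library block called none of the 3. Ntn5 was also not called with the limit at 1 barcode UMI or at 15000 to 40000 UMIs per neuron. The calls of Sema7a and Nrp1 were lost without unsorted library 1, without unsorted library 2 and without the sorted library, and that of Ntn5 without unsorted library 2, unsorted library 3 or the sorted library.

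The count of 11 was 6 by DESeq2, 2 without the library block, 7 without unsorted library 2 (Robo2 among them) and 5 without the sorted library. Of all genes 310 were called in the main fit, and 142, 56, 178 and 278 in these settings. Without the sorted library the guidance genes thus lost a larger share of their calls than all genes did. The 5 called without the sorted library were Efnb3, Nrp2, Ntng1, Sema3c and Unc5d. For 6 further guidance genes the p passed and the fold was too small. Of all 11477 genes tested there the p of 686 passed, and 310 reached the fold limit too. Epha5 (-0.35), Efnb2 (-0.47) and Unc5c (-0.47) had negative log2 fold changes, and Robo2 (0.48), Ephb6 (0.41) and Epha4 (0.21) positive ones.

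Subtype markers and depth moved along with this contrast. S100b was 56.9 ± 6.43 CPM in barcode-high and 27.6 ± 15.1 CPM in barcode-zero L5-S100b neurons (SD, n = 4; adjusted p = 5.12e-05). Cux2 was 2.59 ± 0.997 against 12.0 ± 11.8 CPM (SD, n = 4; adjusted p = 2.99e-05 by edgeR). Calb1, Bcl6 and Npy, markers of other subtypes, were lower as well, so 5 of the 10 subtype markers were called, and summed over the 10 the markers ranged over 601 to 723 CPM against 406 to 593 CPM. The median barcode-high neuron had 25553.5, 27502, 29004 and 34389 UMIs and the median barcode-zero neuron 19306.5, 23544, 22674 and 28185 UMIs. At 15000 to 40000 UMIs per neuron 10 guidance genes were called, beside 268 of all 11058 genes tested. In that window Ntn5 and Epha6 lost their call and Efnb2 (log2 fold change -0.52) gained one. Markers of other cell types stayed low in both classes: the astrocyte markers summed to 4.41 to 6.22 CPM against 1.39 to 9.05 CPM, those of inhibitory neurons to 0.138 to 2.83 CPM against 0 to 1.65 CPM, of microglia to 2.62 to 13.7 CPM against 0 to 10.7 CPM, of the oligodendrocyte lineage to 9.24 to 23.7 CPM against 14.5 to 28.1 CPM and of vascular cells to 6.07 to 12.9 CPM against 6.95 to 9.72 CPM. None of these 22 markers was at 0 in both classes. The part of subtype composition and of depth in the guidance gene differences was not tested.

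**Figure D4:**
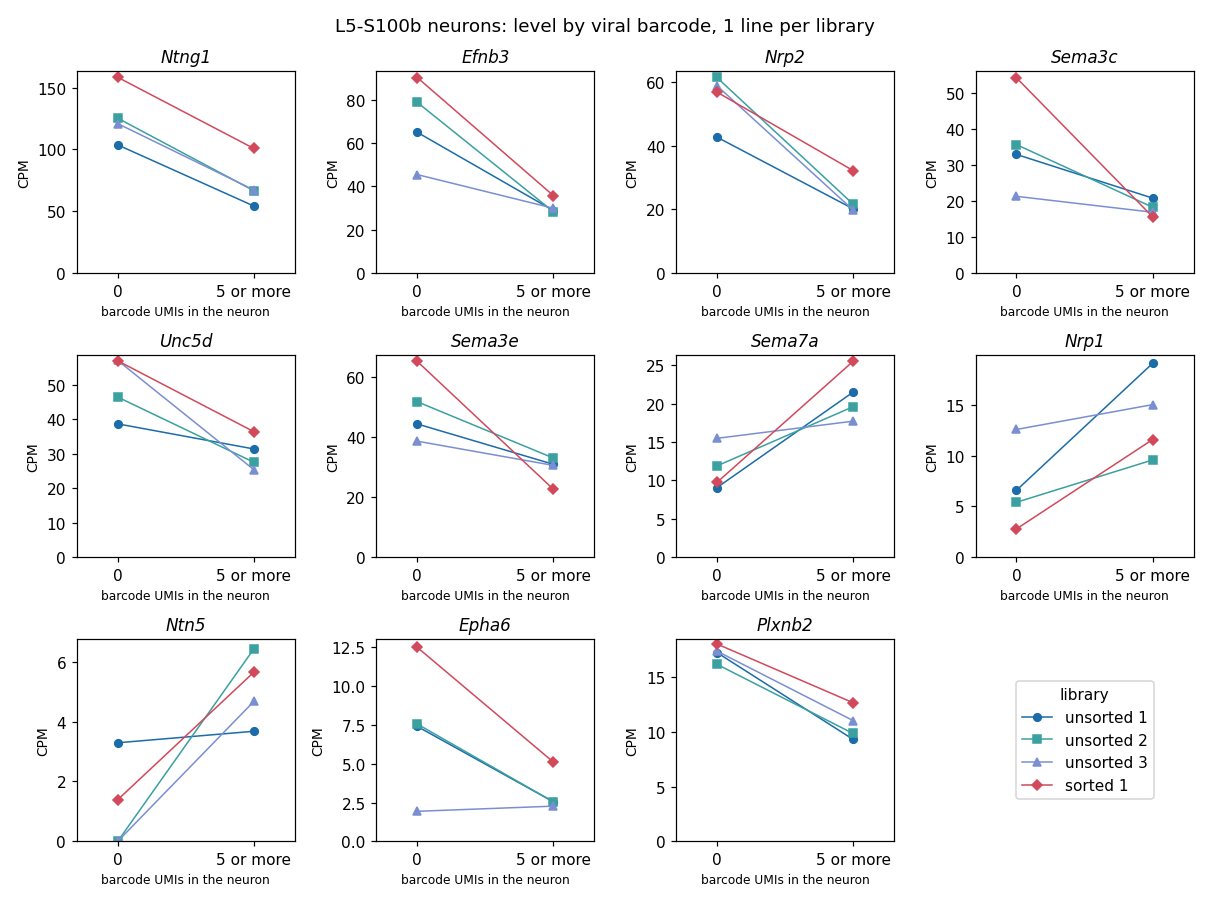
Level in CPM (y axis, from 0) of the 11 guidance genes called in L5-S100b, in neurons with 0 and with 5 or more barcode UMIs (x axis), with 1 line per library. The lines of Ntng1, Efnb3, Nrp2, Sema3c, Unc5d, Sema3e and Plxnb2 go down in all 4 libraries, those of Sema7a, Nrp1 and Ntn5 go up in all 4, and that of Epha6 goes up in unsorted library 3.

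The sequence just before the start of 1 gene of each direction is shown, Sema3e for the genes lower and Sema7a for those higher in barcode-high L5-S100b neurons, as the upstream context of genes that moved apart within a subtype. Each is the 250 bases before the RefSeq start (GRCm38.p6), 5′ to 3′ on the strand of the gene, and ends where the GENCODE gene begins. Sema3e lies at chr5:14025026-14025275 and Sema7a at chr9:57939862-57940111, both on the plus strand. Capitals mark the GC box GGGCGG on either strand.
Sema3e: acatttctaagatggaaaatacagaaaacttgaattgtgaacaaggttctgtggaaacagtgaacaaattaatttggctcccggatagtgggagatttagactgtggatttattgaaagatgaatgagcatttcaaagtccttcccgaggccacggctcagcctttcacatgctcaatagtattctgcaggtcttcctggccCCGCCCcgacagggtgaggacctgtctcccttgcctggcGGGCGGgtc
Sema7a: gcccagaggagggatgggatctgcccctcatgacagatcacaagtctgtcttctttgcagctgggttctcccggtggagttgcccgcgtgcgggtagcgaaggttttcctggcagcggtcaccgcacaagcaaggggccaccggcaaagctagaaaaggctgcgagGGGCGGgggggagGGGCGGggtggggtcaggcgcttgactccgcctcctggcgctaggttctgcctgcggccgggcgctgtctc

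The Sema3e window holds 1 forward and 1 reverse copy of the GC box, and that of Sema7a 2 and 0. The GC share was 48.0% and 66.4%. The TATA box, searched as TATAAA on both strands, is in neither window. Of all 32851 windows of this length, 32.7% hold a GC box and 12.4% a TATA box. Of the 77 windows of the 61 guidance genes listed there 70.1% hold a GC box and 2.60% a TATA box. The median GC share was 64.4% in the windows of guidance genes and 52.4% in all windows, and its part in these shares was not tested. A match is a run of letters and no measured site.

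In L6-Npy, Nrp1 and Robo2 were higher in barcode-high neurons. This comparison rested on 146, 126, 147 and 116 barcode-high and 58, 68, 57 and 49 barcode-zero neurons. Nrp1 stood at 40.1, 41.5, 34.3 and 39.5 against 20.2, 31.1, 25.2 and 27.2 CPM, without overlap (log2 fold change 0.58, SE 0.143, adjusted p = 0.0211). Robo2 (chr16:73891839-74411825, minus strand), a receptor for Slits, stood at 62.8, 63.6, 65.6 and 54.9 against 40.4, 28.8, 50.3 and 56.1 CPM and was higher in 3 of 4 libraries, the sorted one being the exception (log2 fold change 0.50, SE 0.129, adjusted p = 0.0314). Both calls are close to the limits. DESeq2, the fit without the block and the limit at 1 barcode UMI called neither, and leaving out unsorted library 1 or 3 gave none, leaving out unsorted library 2 Nrp1 alone, and leaving out the sorted library Robo2 alone. Efnb3 had an adjusted p of 0.000699 by edgeR at a log2 fold change of -0.42, with 83.5, 95.0, 93.4 and 150.1 against 123, 126, 122 and 198 CPM. Epha5 had 0.0134 at -0.22 in the same test. Both were below the fold limit, and both had the lower value in the barcode-high neurons of 4 of 4 libraries. The summed subtype markers were lower in barcode-high L6-Npy neurons in 4 of 4 libraries (289 to 415 CPM against 345 to 482 CPM). Npy itself was 187 ± 57.0 against 253 ± 65.3 CPM (SD, n = 4; log2 fold change -0.44, adjusted p = 1.53e-05 by edgeR), and the part of this in the guidance gene differences was not tested.

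In L6-Syt6, the subtype with the most neurons (431, 387, 376 and 441 barcode-high and 749, 766, 718 and 94 barcode-zero), the p of 8 of 57 guidance genes passed but none reached the fold limit. Of all 13030 genes tested there the p of 948 passed, and 218 reached the fold limit too. Epha4 stood at 106, 114, 107 and 129 against 92.9, 83.0, 87.0 and 122 CPM (log2 fold change 0.31, SE 0.0579, adjusted p = 0.0167) and Epha7 at 89.4, 87.5, 88.9 and 82.7 against 74.1, 71.9, 70.3 and 84.3 CPM (log2 fold change 0.28, SE 0.0542, adjusted p = 0.0185). The log2 fold changes of the other 6 were 0.49 for Slit2, 0.44 for Sema4g, 0.28 for Sema3c, 0.23 for Sema4a, -0.22 for Nrp1 and -0.44 for Sema3e. Without the sorted library 4 were called, Slit2 and Plxnd1 higher and Ephb3 and Sema6a lower, beside 309 of all 13028 genes. Without unsorted library 3 Sema3e was called lower, beside 77 of all 13079 genes called. Subtype markers changed in this contrast too. Etv1 was called lower (log2 fold change -0.52, adjusted p = 0.00311 by edgeR) and Rorb higher (0.65, adjusted p = 0.0399), while Sulf1 had 0.37 (adjusted p = 0.00533), below the fold limit. Their part in the guidance gene values was not tested. The guidance genes outside the naming rule were named after their values had been seen.

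In the smaller subtypes the guidance genes with the smallest p were Nrp2 and Sema3d in L2/3-Rorb, Efnb3 and Efnb2 in L2/3-Calb1, and Sema3c and Plxna1 in L5-Bcl6. In L2/3-Rorb, Nrp2 stood at 27.6, 29.9, 32.6 and 44.0 against 61.1, 44.7, 36.7 and 39.8 CPM (log2 fold change -0.52, SE 0.169, adjusted p = 0.27), and Sema3d at 16.5, 19.8, 7.24 and 14.4 against 25.9, 14.5, 22.9 and 37.4 CPM (log2 fold change -0.74, SE 0.255, adjusted p = 0.328). Sema3d was called lower without unsorted library 2 (log2 fold change -1.13). Subtype markers moved in L2/3-Rorb as well. Etv1 was called higher (log2 fold change 0.82, adjusted p = 0.000282 by edgeR), and Cux2 had -0.40 (adjusted p = 0.0159), below the fold limit. S100b was 13.2 ± 6.84 against 1.06 ± 1.44 CPM (SD, n = 4). The part of these markers in the guidance gene values was not tested. In L2/3-Calb1, Efnb3 stood at 75.1, 58.6 and 103 against 123, 112 and 113 CPM (log2 fold change -0.55, SE 0.163, adjusted p = 0.322) and Efnb2 at 89.4, 60.4 and 75.1 against 111, 94.2 and 91.3 CPM (log2 fold change -0.40, SE 0.161, adjusted p = 0.775), in 3 unsorted libraries. In L5-Bcl6, Sema3c stood at 14.01, 33.5 and 15.9 against 0, 10.996 and 2.32 CPM (log2 fold change 2.20, SE 0.508, adjusted p = 0.108) and Plxna1 at 23.5, 21.0 and 25.6 against 9.71, 6.597 and 6.95 CPM (log2 fold change 1.58, SE 0.404, adjusted p = 0.216). Their barcode-zero values there rest on 6 and 10 UMIs. Both passed the filter on low counts through their barcode-high values, so these folds are uncertain. When that filter was dropped both were called, among 22 of all 16257 genes tested.

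Whether the barcode difference itself differed between subtypes was tested in one edgeR fit over L2/3-Rorb, L5-S100b, L6-Npy and L6-Syt6. It did for 14 of 58 guidance genes, or 24.1%, against 7.36% of all genes tested at an adjusted p under 0.05. Without unsorted library 1, 2 or 3 the number was 6, 7 and 9, and without the sorted library 14. Of all genes it was 394 of 12040, 334 of 12239, 444 of 12044 and 1260 of 12133 in the same order. Efnb3 had log2 fold changes of -0.05, -1.13, -0.41 and -0.03 in L2/3-Rorb, L5-S100b, L6-Npy and L6-Syt6 in this fit (adjusted p = 1.21e-06), so it was far lower in L5-S100b and near 0 in L2/3-Rorb and L6-Syt6. Nrp2 had -0.51, -1.21, -0.32 and 0.20 in the same order (adjusted p = 1.27e-06). In the edgeR fits within a subtype it was called in L5-S100b only, with adjusted p of 0.27 in L2/3-Rorb, 0.146 in L6-Npy and 0.108 in L6-Syt6. Nrp1 had 0.62, 1.03, 0.59 and -0.21 (adjusted p = 0.00016), and within a subtype it was called in L5-S100b and L6-Npy only. These signs are the reverse of those of Nrp2, but L5-S100b is the subtype in which both genes were called. Ntng1 had 0.05, -0.80, 0.27 and 0.51 (adjusted p = 1.04e-05), and Sema3c -0.02, -0.91, -0.22 and 0.29 (adjusted p = 0.000242). These 5 genes were called under all 8 alternatives of this test.

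**Figure D5:**
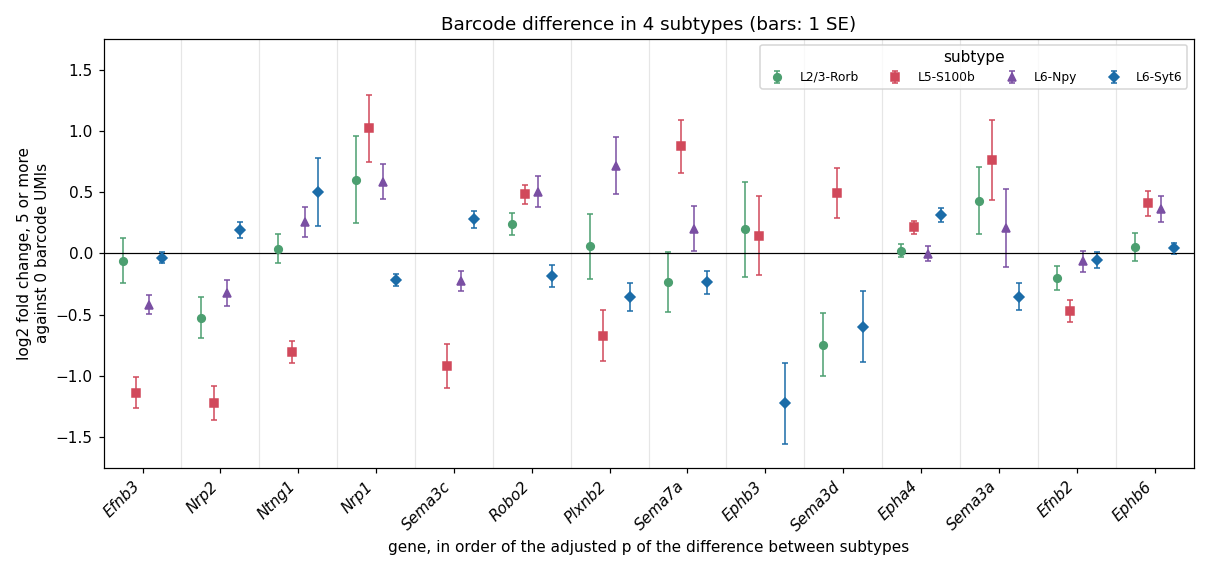
Log2 fold change of barcode-high against barcode-zero neurons (y axis; bars, 1 SE of the fit within a subtype) of the 14 guidance genes whose difference varied between 4 subtypes (x axis, in order of adjusted p). Points are missing where a gene did not pass the filter in that subtype alone. Efnb3, Nrp2, Ntng1 and Sema3c lie lowest in L5-S100b, and Nrp1 lies above 0 in 3 subtypes and below it in L6-Syt6.

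Few other genes of the same pathways were called, and their counts were too small to set apart from the shares of all genes. Of 48 intracellular effectors of guidance receptors, 39 to 46 were tested per subtype, and the 2 called were Vav2, a guanine nucleotide exchange factor (log2 fold change 1.32, adjusted p = 0.00843 by edgeR), and Srgap1, a GTPase-activating protein that binds Robo receptors (-0.84, adjusted p = 0.00535), both in L5-S100b. Of 20 partner proteins such as FLRT, RGM and NGL genes, 14 to 18 were tested per subtype. One was called, Dscaml1, a cell adhesion molecule, lower in L5-S100b (-1.33, adjusted p = 0.000592 by edgeR). In L5-S100b 1 effector of 46 tested was higher and 1 lower, and 1 partner of 16 lower, beside 1.1% higher and 1.6% lower of all genes there. In the other 5 subtypes no effector and no partner was called, beside the shares of all genes given above for each. Over the subtypes the median log2 fold change was -0.05 to 0.03 for the effectors and -0.08 to 0.10 for the partners.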

How the data were processed

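Single-cell RNA of the vmPFC was measured in 3 unsorted libraries and 1 EGFP-sorted library. The authors aligned Chromium 3′ v3 reads with Cell Ranger v3.0.2 to mm10-3.0.0 with barcodes added; the submitters' processing notes also name Seurat 3.1.4. The deposited matrices hold raw UMI counts per gene and cell, and the deposited metadata give the authors' subtype of each excitatory neuron. The feature named barcode was taken to sum the 5 viral barcodes, took 0.0319% to 0.0384% of UMIs and entered neither library sizes nor tests. Recomputed totals differed from the metadata by at most 70 UMIs per neuron.

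Other cells were barcodes that the metadata do not list, kept at under 20% mitochondrial UMIs, 1000 to 60000 total UMIs and 500 to 8000 detected genes. No doublet caller was run, and the upper limits on genes and UMIs stood in for one. Counts were summed per library, subtype and barcode class, with at least 10 cells per sum. Tests used edgeR 4.0.16 in R 4.3.3 (quasi-likelihood, TMM, filterByExpr, library block, Benjamini-Hochberg over all genes), with DESeq2 1.42.0 as an alternative, and were checked on simulated data. Coordinates are those of GENCODE vM21 (GRCm38), matched by Ensembl identifier for all 71 genes. In that annotation 23 of the 71 overlap another gene on their strand, mostly microRNAs and unprocessed transcript models, and how reads were shared between them was not tested.

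Members and lists were chosen with earlier results of these data known. Genes were named by rule: separated genes with at least 5 CPM in the highest subtype (up to 20, by ratio to the next), the highest of each family, every called gene, and the 2 smallest p-values where fewer than 3 were called.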

Additional observations from a re-analysis of the deposited data

Results flagged for a closer look

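No group of samples had the 4 libraries that a check for outlying samples needs. The results flagged are the 14 guidance genes whose difference between barcode-high and barcode-zero neurons itself differed between L2/3-Rorb, L5-S100b, L6-Npy and L6-Syt6 in the joint edgeR fit. The adjusted p was 1.21e-06 for Efnb3, 1.27e-06 for Nrp2, 1.04e-05 for Ntng1, 0.00016 for Nrp1 and 0.000242 for Sema3c, all of which are described above. It was 0.00183 for Robo2, called in 7 of 8 alternatives, with log2 fold changes of 0.25, 0.49, 0.51 and -0.18 in the 4 subtypes in that order. Plxnb2 (0.00646 by edgeR) had -0.67 in L5-S100b and 0.73 in L6-Npy, and Sema7a (0.0115) had 0.88 in L5-S100b and -0.23 in L6-Syt6.

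The other 6 had larger adjusted p-values: 0.0189 for Ephb3, 0.0252 for Sema3d, 0.0287 for Epha4, 0.0378 for Sema3a, 0.0463 for Efnb2 and 0.0481 for Ephb6. They were called in 3, 4, 4, 4, 1 and 4 of the 8 alternatives. Ephb3 ranged from 1.60 in L6-Npy to -1.20 in L6-Syt6, and Sema3d from 1.37 in L6-Npy to -0.72 in L2/3-Rorb, on the log2 scale. Neither passed the filter on low counts in L6-Npy alone.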

How the results depend on the processing

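No named barcode difference changed sign under any alternative. In L5-S100b the count of calls was 11 in the main fit, 6 by DESeq2 and 2 without the library block. It was 17 with no limit on the fold change and 5 to 10 with 1 library left out. These counts can include genes that the main fit did not call: Efnb2, Ephb6 and Unc5c without unsorted library 1, and Robo2 without unsorted library 2 or 3. In L6-Npy the 2 calls were 0 by DESeq2, 0 without the block, 4 with no fold limit, 0 at 1 or more barcode UMIs, 1 at 15000 to 40000 UMIs and 0 to 1 with 1 library left out. In L6-Syt6, with 0 calls, there were 2 with no filter on low counts, 8 with no fold limit and 0 to 4 with 1 library left out. L5-Bcl6, also with 0, had 2 with no filter, and L2/3-Rorb had 0 to 1 with 1 library left out. The count of guidance genes that differed between subtypes, 14 in the main fit, was 7 at 1 or more barcode UMIs and 6 to 14 with 1 library left out. The count of separated guidance genes, 25 with all neurons and libraries, was 15 in barcode-zero neurons alone and 26 to 36 with 1 library left out. Except for alternatives that use fewer neurons, fewer libraries or another limit by construction, the cause was not tested. The other 57 of the 82 recomputed counts and shares stayed within 1.5 times the value reported.

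Of the 20 genes named for their subtype level all kept their highest subtype under 7 alternatives, and 12 stayed separated under all of them. In barcode-zero neurons alone Ntng1, Sema6c, Sema6d, Unc5a, Epha8, Plxnb2 and Efna5 were no longer separated. The same held for Sema6c and Ntn5 with TMM factors, and for Sema6c and Epha8 at 15000 to 40000 UMIs per neuron. Depth limits Ntn5, Epha6, Nrp1 and Sema7a in L5-S100b, with 5, 27, 28 and 45 barcode-zero UMIs. The barcode contrasts pair neurons within a library through the library block.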
